A study of Mus musculus with 7 samples.

Results

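Csf1r, Csf2ra, Csf3r, Cd68 and Ly6c1 were followed in megakaryocyte progenitors sorted from the bone marrow of old and young mice. These 5 genes encode 3 receptors for myeloid growth factors and 2 surface or lysosomal proteins used to mark monocytes and macrophages. They were chosen by symbol from a deposited table of 769 gene models, out of 11778 in the authors' multiple-testing adjustment, and each symbol matched 1 row. The study has 4 libraries from old mice (18 to 20 months in one label, 20 months in another) and 3 from young mice (3 months). All mice came from crosses of Flt3-Cre to the mTmG reporter, in which Cre activity switches a cell and its offspring for good from Tomato (red) to GFP (green). The cells were Lin-cKit+Sca1-CD150+CD41+, and Tom+ or GFP+ fractions were taken. Titles of young libraries begin with mkpgy and those of old libraries with mkpgo or mkpto, and the letters are not explained. The deposited old mean was read as covering both kinds of old library, so if the letters g and t mark the sorted fraction, age and fraction cannot be told apart in this table. The series' design text calls the mice WT. The strain is given as C57BL/6, and as C57BL/7 for 1 old library. No source used here says whether libraries came from separate mice or from pools, so the p-values may measure technical spread.

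Myeloid growth factors, the colony-stimulating factors, keep progenitors alive, make them divide and steer them towards neutrophils, monocytes or macrophages. Csf1r is a receptor tyrosine kinase for CSF1 and IL-34 and is the defining receptor of monocytes and macrophages. Csf2ra is the ligand-binding alpha chain for GM-CSF and signals together with a shared beta chain, whereas Csf3r forms the G-CSF receptor of the neutrophil line. Both lack a kinase of their own and work through JAK and STAT proteins. Megakaryocyte progenitors are committed to platelet production and depend chiefly on thrombopoietin.

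All 5 genes were higher in old than in young cells, in which 3 of them averaged under 10 normalized counts. The table gives 1 mean normalized count per age group and no value per library, so neither the spread within a group nor any overlap of the groups can be shown. Log2 fold changes are old over young and carry the standard error (SE) that the authors deposited, and a gene is called where their DESeq adjusted p is under 0.05. All 5 were called in the authors' deposited table, where 4.13% of the 11778 gene models were called in either direction and 2.56% as higher in old. The genes were picked with these results known, so the count of 5 is a description. The lists of related genes and markers below were also chosen with earlier results of these data known. Their shares are of annotated genes, tested or not, and are descriptions too. In sorted bulk cells, more cells of a type and more RNA per cell cannot be told apart.

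**Figure D1:**
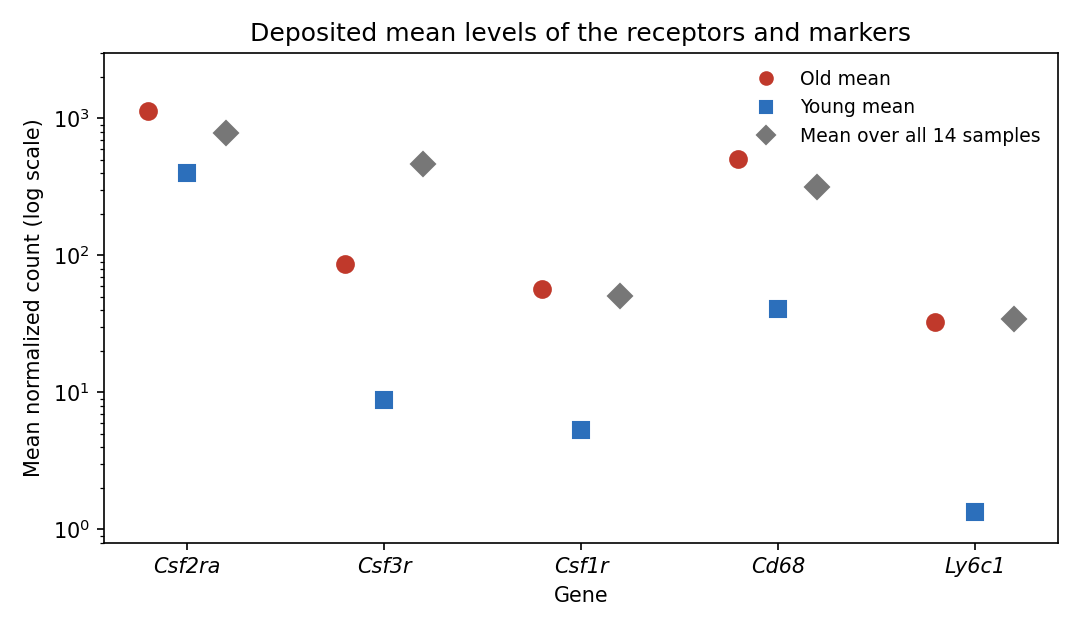
Mean normalized count (log axis) of each gene in old libraries (red circles), in young libraries (blue squares) and over all 14 samples of the authors' fit (grey diamonds), with no error because no value per library is given. Every old mean lies above its young mean, and the 14-sample mean of Csf3r (468) lies far above both of its group means.

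Csf2ra was the most abundant of the receptors at both ages and had the smallest fold change. It averaged 1124 normalized counts in old cells and 399 in young cells in the authors' deposited table, a ratio of 2.82. Its log2 fold change was 1.50 (adjusted p = 0.000541, SE 0.32) in the authors' deposited table. The young mean of Csf2ra lay above the upper quartile of young means among the gene models called higher, which was 158 in the authors' deposited table. The gene (kgCluster14836 in the table) lies on chromosome 19 at 61223957 to 61228429, minus strand, in GENCODE M21 on GRCm38, the build also called mm10. No other annotated gene overlaps its exons.

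Csf3r and Csf1r, at far lower levels, rose by folds close to each other. Csf3r averaged 85.8 normalized counts in old cells and 8.72 in young cells in the authors' deposited table, a ratio of 9.84. Its log2 fold change was 3.28 (adjusted p = 7.78e-06, SE 0.58) in the authors' deposited table. Csf3r (kgCluster20337) lies on chromosome 4 at 126024550 to 126044440, plus strand, and 10.7% of the 50-base windows and 23.1% of the 31-base windows of its annotated transcripts also occur in transcripts of other genes. No source used here gives the read length. Csf1r averaged 56.8 normalized counts in old cells and 5.32 in young cells, a ratio of 10.7, in the authors' deposited table. Its log2 fold change was 3.37 (adjusted p = 0.000395, SE 0.71) in the authors' deposited table. Csf1r (kgCluster13574) lies on chromosome 18 at 61100598 to 61132149, plus strand. Exons of Hmgxb3 on the opposite strand cover 873 bases, or 15.1%, of its exon length. No source used here gives the strand setting of the counting, so reads from that stretch cannot be assigned to either gene. Hmgxb3 has no row in the table.

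Cd68 and Ly6c1 differed widely in how precisely their rise was measured. Cd68, a lysosomal membrane glycoprotein of macrophages related to the LAMP proteins, averaged 509 normalized counts in old cells and 40.7 in young cells in the authors' deposited table. Its ratio was 12.5, and the authors' deposited table gave a log2 fold change of 3.64 with an SE of 0.62. Its adjusted p of 1.62e-06 was the smallest among the 5 in the authors' deposited table. Cd68 (kgCluster4184; chromosome 11, 69664213 to 69666153, minus strand) shares no exon with another annotated gene and none of its 50-base windows with other transcripts. Ly6c1 encodes a GPI-anchored form of the Ly6C antigen, which is high on inflammatory monocytes and is also known from endothelial cells. It averaged 32.6 normalized counts in old cells and 1.34 in young cells in the authors' deposited table. The ratio of 24.4 was the largest of the 5, but so was the SE (log2 fold change 4.62, adjusted p = 0.0251, SE 1.36) in the authors' deposited table. Its 95% interval, computed from that SE, runs from 3.89-fold to 156-fold, and the call is lost at an adjusted p limit of 0.01. With a pseudocount of 10 added to both means, its log2 ratio was 1.91, below that of Cd68 (3.35), Csf3r (2.36) and Csf1r (2.12), so its place as the largest ratio rests on its low young mean.

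**Figure D2:**
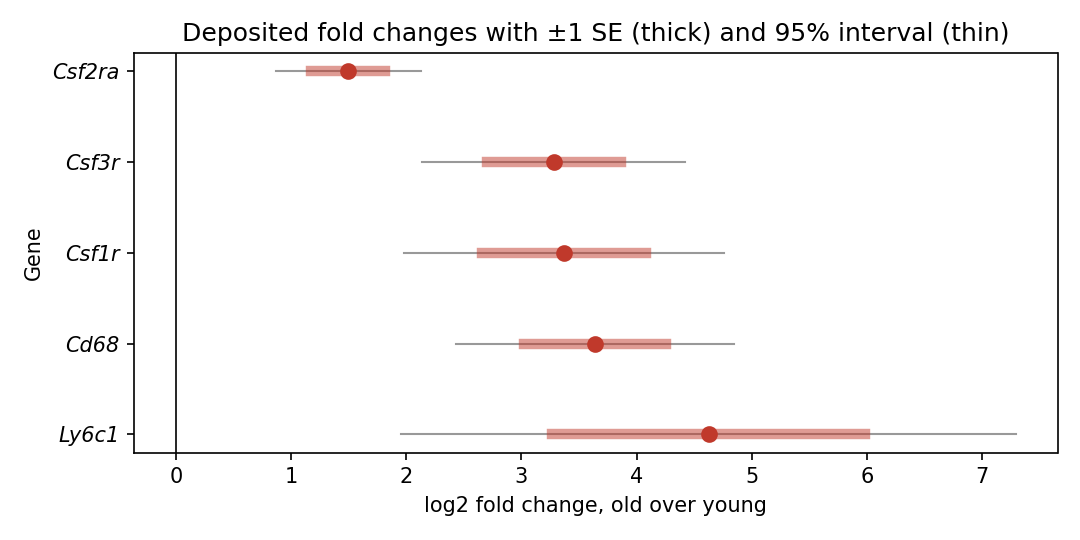
Deposited log2 fold change, old over young (x axis), of each gene (points), with 1 SE either side (thick bars) and the 95% interval computed from it (thin lines). All intervals lie above 0, from 0.87 to 2.13 for Csf2ra and from 1.96 to 7.29 for Ly6c1.

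Csf2ra had the smallest change of the 5. The 95% interval of its log2 fold change ended at 2.13, while the interval of Csf3r began at 2.14 and that of Cd68 at 2.43. The interval of Csf1r began at 1.98 and that of Ly6c1 at 1.96, so both overlapped with Csf2ra. The intervals of Csf3r (2.14 to 4.42), Csf1r (1.98 to 4.76) and Cd68 (2.43 to 4.85) covered much the same range. No test of these differences was possible, because the genes were measured in the same libraries and the correlation of their errors is unknown.

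Per kilobase of annotated exon, the order of the genes differed between the ages. In old cells Cd68 had 405 and Csf2ra 391 mean normalized counts per kilobase, followed by Csf3r at 23.8, Ly6c1 at 19.5 and Csf1r at 9.83. In young cells Csf2ra had 139 per kilobase, Cd68 32.4, Csf3r 2.42, Csf1r 0.921 and Ly6c1 0.799. Csf2ra thus stood at 0.967 times the level of Cd68 per kilobase in old cells and at 4.28 times in young cells. Csf2ra was 16.5 times as high as Csf3r per kilobase in old cells and 57.4 times in young cells. These levels used exon lengths from GENCODE M21 rather than the gene models of the authors, and with no spread per group it cannot be said which neighbours in the order differ.

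Among all changes called higher, the 5 genes ran from fairly precise and small (Csf2ra) to imprecise and large (Ly6c1), without reaching either end of the range. For the 302 gene models called higher in the authors' deposited table, the log2 fold change had quartiles of 1.54 and 3.68 around a median of 2.37, and the SE had a median of 0.62. By size of fold change Ly6c1 ranked 50th of the 302, Cd68 78th, Csf1r 90th, Csf3r 94th and Csf2ra 230th. The SE of Csf2ra was undercut by 46 of the 302, that of Cd68 by 151 and that of Ly6c1 by 269. Of the 302, 15 had a young mean below that of Ly6c1, 63 below that of Csf1r and 82 below that of Csf3r in the authors' deposited table. The table lists only adjusted p-values under 0.1, so gene models whose change was small for their SE are absent and sizes and SE are linked by that selection.

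**Figure D3:**
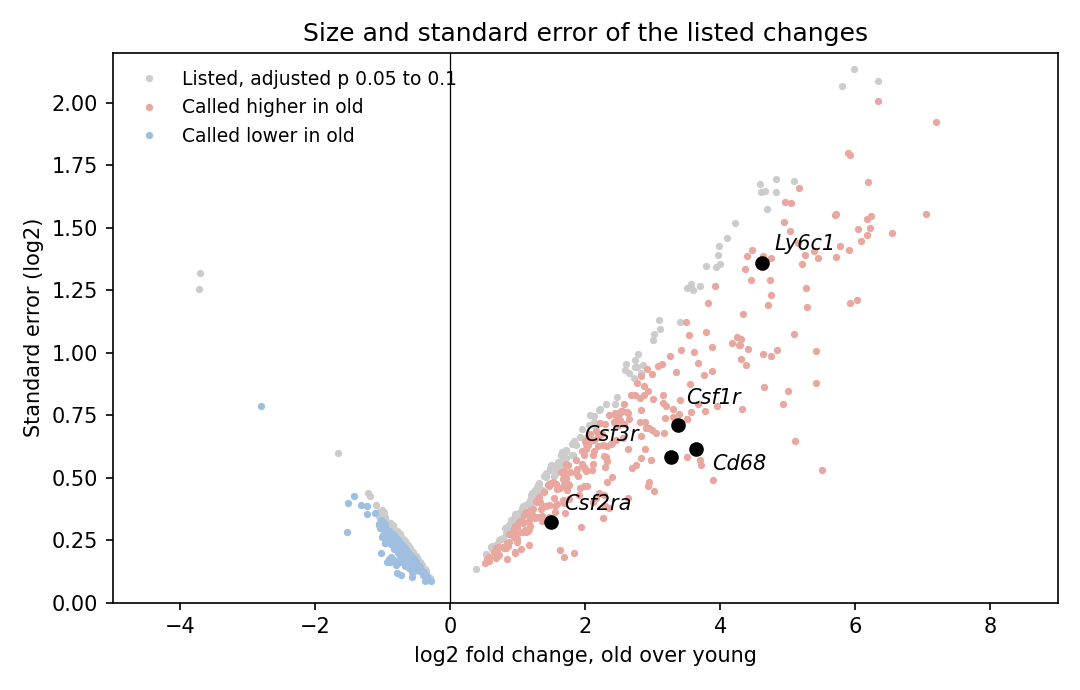
Log2 fold change, old over young (x axis), against its standard error (y axis) for the listed gene models, coloured by call, with 1 gene model beyond the plotted range left out. The 5 genes (black) run from Csf2ra (1.50, SE 0.32) to Ly6c1 (4.62, SE 1.36), and the empty wedge around 0 is where the table lists nothing.

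Ly6c1 has a near relative whose values bear on its own. Ly6c2, the form of Ly6C best known from monocytes, lies 59327 bases from Ly6c1 on chromosome 15 (Ly6c1 at 75044018 to 75048830, Ly6c2 at 75108158 to 75111970, both on the minus strand). It averaged 897 normalized counts in old cells and 56.8 in young cells, but did not pass the threshold (log2 fold change 3.98, adjusted p = 0.0879, SE 1.43) in the authors' deposited table. Per kilobase, Ly6c2 was 16.8 times as high as Ly6c1 in old cells and 26.0 times in young cells. Of the 50-base windows of Ly6c1 transcripts, 32.8% also occur in other genes and 21.5% in Ly6c2 (46.8% and 33.0% of the 31-base windows), so the value of Ly6c1 is uncertain wherever the authors' counting could exchange reads between the copies. No source used here says how reads that match several genes were treated. Of 28 other genes of the Ly6 family, 3 were listed and 1 was called (3.57%, close to the 2.56% of all gene models), namely Ly6a, which encodes the Sca1 antigen that the sort gate excluded. Ly6a averaged 98.8 normalized counts in old cells and 23.5 in young cells (log2 fold change 2.08, adjusted p = 0.0499, SE 0.67) in the authors' deposited table. The last listed gene of that family list, the complement inhibitor Cd59a, had 255 in old cells and 90.3 in young cells in the authors' deposited table. At an adjusted p of 0.0993 it did not pass (1.50, SE 0.55). The list was matched by symbol. It left out AK153212 (kgCluster9823; 4.95, SE 1.53) and 9030619P08Rik (kgCluster9826; 2.30, SE 0.54). Both were called higher, and their identifiers closely follow that of Ly6c2 (kgCluster9822).

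None of the partners of the growth factor receptors was listed. Of 10 further ligands and chains of the CSF, IL-3 and IL-5 family, including Csf1, Il34, Csf2, Csf3 and the shared beta chains Csf2rb and Csf2rb2, 0 had a row in the authors' deposited table. The table was cut at an adjusted p of 0.1, so such genes may be unchanged, too variable or too low, and no count at an unadjusted p can be made. Of 31 other cytokine and chemoattractant receptors of myeloid cells, 1 was listed and called. That is 3.23% of these annotated genes, close to the 2.56% called higher among the gene models of the adjustment, so the count is no result about such receptors. It was the TNF receptor gene Tnfrsf1a, with 407 normalized counts in old cells and 159 in young cells (1.36, adjusted p = 0.00699, SE 0.35) in the authors' deposited table.

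Among 33 proteins that carry signals below these receptors, 3 were called, each of them as higher in old (9.09%, beside 2.56% of all gene models in the adjustment). The count was 1 when gene models with an SE above 1 were left out. The Src family kinase Fgr averaged 57.0 normalized counts in old cells and 1.55 in young cells (log2 fold change 5.09, adjusted p = 0.000402, SE 1.08) in the authors' deposited table. Tyrobp, the adaptor DAP12, had 452 in old cells and 29.9 in young cells (3.92, SE 1.27) in the authors' deposited table. Jak2, Stat3, Stat5a and Stat5b had no row.

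Of 22 transcription factors of myeloid cells, 4 were called, all higher in old (18.2%, beside 2.56% of all gene models in the adjustment). The count was 1 at an adjusted p limit of 0.01. Spi1 encodes PU.1, an ETS factor known from work on human and mouse promoters to act on myeloid growth factor receptor genes. It averaged 1267 normalized counts in old cells and 458 in young cells in the authors' deposited table. Its log2 fold change of 1.47 (SE 0.39, adjusted p = 0.0107) was of the size seen for Csf2ra (1.50, SE 0.32) in the authors' deposited table. The AP-1 subunit Jun had 839 in old cells and 94.3 in young cells (3.15, SE 0.80) in the authors' deposited table. The inhibitor of E proteins Id2 had 44.4 in old cells and 10.3 in young cells (2.11, SE 0.59) in the authors' deposited table. The C/EBP factor Cebpd had 75.2 in old cells and 22.5 in young cells (1.74, SE 0.55) in the authors' deposited table.

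The promoters of Csf2ra, Csf3r, Cd68 and Ly6c1 are shown to let the core of PU.1 sites be seen, and that of Csf1r is not shown. Each runs from 250 bases before the transcription start to base 30 after it (RefSeq, GRCm38.p6), written 5′ to 3′ on the strand of the gene, with GAGGAA or its complement TTCCTC in capitals. The windows are chr19:61228389-61228668 (minus strand) for Csf2ra, chr4:126024409-126024688 (plus) for Csf3r, chr11:69666141-69666420 (minus) for Cd68 and chr15:75048808-75049087 (minus) for Ly6c1.
Csf2ra promoter: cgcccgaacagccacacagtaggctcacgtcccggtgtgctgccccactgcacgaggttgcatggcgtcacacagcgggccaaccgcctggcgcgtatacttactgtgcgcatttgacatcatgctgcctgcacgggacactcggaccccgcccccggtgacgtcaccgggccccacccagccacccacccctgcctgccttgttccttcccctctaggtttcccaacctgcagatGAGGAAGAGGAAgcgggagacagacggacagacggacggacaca
Csf3r promoter: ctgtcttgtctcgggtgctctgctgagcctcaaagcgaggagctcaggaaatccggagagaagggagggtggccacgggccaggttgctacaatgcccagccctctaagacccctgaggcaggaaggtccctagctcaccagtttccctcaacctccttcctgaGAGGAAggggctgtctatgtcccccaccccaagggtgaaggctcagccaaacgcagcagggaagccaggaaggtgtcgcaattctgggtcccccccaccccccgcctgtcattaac
Cd68 promoter: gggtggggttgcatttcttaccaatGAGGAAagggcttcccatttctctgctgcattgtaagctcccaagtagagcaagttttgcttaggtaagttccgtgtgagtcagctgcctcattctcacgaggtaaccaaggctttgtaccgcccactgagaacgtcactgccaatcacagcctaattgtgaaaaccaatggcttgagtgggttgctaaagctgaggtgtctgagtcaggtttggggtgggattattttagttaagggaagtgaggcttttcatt
Ly6c1 promoter: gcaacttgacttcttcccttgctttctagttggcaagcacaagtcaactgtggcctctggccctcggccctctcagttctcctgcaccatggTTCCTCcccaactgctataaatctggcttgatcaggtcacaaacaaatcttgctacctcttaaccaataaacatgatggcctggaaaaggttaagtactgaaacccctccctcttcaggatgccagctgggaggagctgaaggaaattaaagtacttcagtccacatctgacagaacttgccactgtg

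GAGGAA, the core of sites bound by PU.1, was found on either strand in all 4 windows. Across 27025 RefSeq promoters of the same length, 1 per gene, 25.9% hold it. Csf2ra held it 2 times side by side without overlap, with first bases at -14 and -8 from the start, Csf3r at -86 and Cd68 at -225. Ly6c1 held it on the other strand at -158, and the second of its 2 start sites in RefSeq also had matches. TTGCNNAA, a C/EBP motif, was found on either strand in Cd68 alone of the 4 (first base at -43), against 10.3% of promoters, and TGTGGT, a RUNX motif, in none of them, against 15.8%. The motifs were chosen after the sequences were seen, the matches are descriptions of letters in a window, and binding was not measured.

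Monocyte and macrophage markers other than the members were called in 9 of 57 cases (15.8%, beside 2.56% of all gene models), all higher in old, with a median log2 fold change of 4.25 among those called. The count was 5 at an adjusted p limit of 0.01 and also at a mean of at least 50, and 3 without gene models with an SE above 1. The lysosomal protease Ctss averaged 272 normalized counts in old cells and 13.7 in young cells (4.31, SE 1.06) in the authors' deposited table. Lyz1 had 42.4 in old cells and 2.23 in young cells (4.25, SE 1.06), and its near copy Lyz2, the lysozyme of macrophages and granulocytes, had 13811 in old cells and 3428 in young cells (2.01, SE 0.53) in the authors' deposited table. The chemokine Ccl6 had 460 in old cells and 17.5 in young cells (4.71, SE 1.19) in the authors' deposited table. The other 4 listed markers, Adgre1, Clec4a2, C1qc and C1qb, did not pass (adjusted p from 0.0551 to 0.084) in the authors' deposited table. Adgre1, an adhesion receptor that marks mouse macrophages, is among these, with 69.1 in old cells and 6.58 in young cells (3.41, SE 1.12) in the authors' deposited table. Over the 13 listed markers the summed means were 19099 normalized counts in old cells and 3971 in young cells. Only genes under an adjusted p of 0.1 entered these sums, each of them higher in old. An old sum above the young one was thus fixed by that selection. Lyz2 made up 13811 of the old and 3428 of the young sum. The rest of the 57, among them Cd14, Itgam, Ccr2 and Cx3cr1, had no row, so their change could not be checked.

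**Figure D4:**
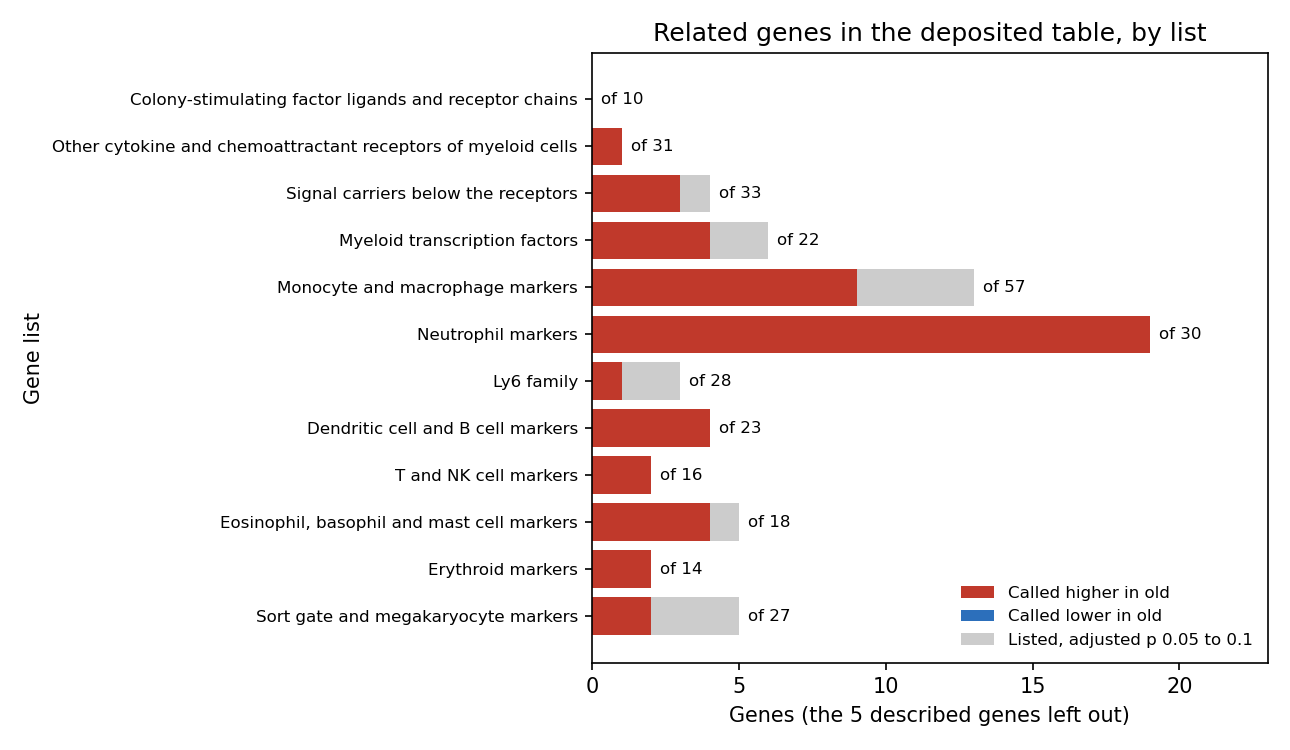
Number of genes (x axis) of each list of related genes and cell type markers in the deposited table, called higher in old (red), called lower (blue, none) or listed with an adjusted p from 0.05 to 0.1 (grey), with the number of annotated genes beside each bar. Neutrophil markers had 19 of 30 called and monocyte and macrophage markers 9 of 57.

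Of the neutrophil markers other than Csf3r, 19 of 30 were called, all 19 higher in old (63.3%, beside 2.56% of all gene models). The median log2 fold change among those called was 5.77. This list was chosen with earlier results of these data known, so its share is a description. The count was 2 without gene models with an SE above 1. Padi4, the histone-citrullinating enzyme of neutrophils, averaged 120 normalized counts in old cells and 18.6 in young cells (2.70, SE 0.54) in the authors' deposited table. Pglyrp1, a granule protein that binds peptidoglycan, had 1019 in old cells and 15.6 in young cells (6.03, SE 1.21) in the authors' deposited table. Retnlg, a resistin-like gene of neutrophils, had 648 in old cells and 4.91 in young cells (7.05, SE 1.56) in the authors' deposited table. Anxa1, an annexin abundant in neutrophils, had 795 in old cells and 37.2 in young cells (4.42, SE 1.02) in the authors' deposited table. The summed means of the 19 listed markers were 93012 normalized counts in old cells and 2229 in young cells. All 19 entered because they were called, each as higher in old, so the direction of these sums was fixed by that selection. The rest of the 30, among them Elane, Mpo, Ctsg, Ly6g and Cxcr2, had no row, so their change could not be checked. Whether other myeloid cells were among the sorted cells, and had any part in the rise of the 5 genes, was not tested.

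The called markers of further cell types were also higher in old. In the list of dendritic and B cell markers 4 of 23 were called (17.4%, beside 2.56% of all gene models called higher). They were Cd74, H2-Aa, H2-Eb1 and H2-Ab1, with summed means of 10905 normalized counts in old cells and 496 in young cells. Eosinophil, basophil and mast cell markers were called in 4 of 18 cases (22.2%). The summed means of the 5 listed were 1453 in old cells and 28.1 in young cells, and Prg3 was listed at 0 in young. T and NK cell markers were called in 2 of 16 cases (12.5%, summed means 42.4 in old cells, 3.26 in young cells). Erythroid markers were called in 2 of 14 (14.3%, summed means 6431 in old cells, 977 in young cells). Only genes under an adjusted p of 0.1 entered the sums so far, each of them higher in old. The direction of these sums was thus fixed by that selection. At an adjusted p limit of 0.01 the counts in these lists, in the order given, were 4, 2, 0 and 0. Of 27 genes of the sort gate and the megakaryocyte line, 2 were called, both higher (7.41%, beside 2.56% of all gene models). The summed means of the 5 listed were 6768 in old cells and 7090 in young cells. Gfi1b, a transcriptional repressor that acts within the megakaryocyte and erythroid lines, made up 3480 of the old and 6355 of the young sum without passing. The other 4 listed genes, Selp, Ly6a, Mmrn1 and Slamf1, summed to 3288 in old cells and 736 in young cells. The gate genes Itga2b (CD41) and Kit and the platelet gene Pf4 had no row, so their levels could not be checked. The gate gene Slamf1 (CD150) was listed at 228 in old cells and 79.3 in young cells in the authors' deposited table, where its adjusted p of 0.0856 did not pass.

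The gene models whose means lay nearest to those of each gene were found by distance in the plane of log2(mean + 1) at both ages, which rests on 2 group means alone. Nearest to Csf1r were Slc11a1, the metal transporter of macrophage phagosomes (59.5 in old cells, 5.21 in young cells, distance 0.0718), Ms4a7 and Slc6a15 in the authors' deposited table. Nearest to Cd68 were Lgals3 (galectin-3, 459 in old cells and 40.6 in young cells, distance 0.148), H2-Eb1 and Ndn in the authors' deposited table. The means of Csf2ra lay closest to those of Limd2 (1108 in old cells, 395 in young cells, distance 0.0244), Dtx3 and Plscr1 in the authors' deposited table. For Csf3r they were BC100303, AK028111 and C130026I21Rik (distances 0.192 to 0.297), and for Ly6c1 they were Evc2, Mab21l2 and Snurf (0.0836 to 0.407). Many gene models share similar levels, so nearness is a description of level only.

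The mean over all 14 samples of the authors' fit, 7 more than the labels list, was far above both group means for Csf3r alone of the 5. Its 14-sample mean was 468 normalized counts, 5.46 times the old mean (85.8) and 53.7 times the young mean (8.72) in the authors' deposited table. If all 4 old libraries stand behind the old mean, the remaining 7 samples averaged 883 for Csf3r, and with 1 to 3 old libraries behind it the remainder averaged 644 to 784. On the same reckoning with 4 old libraries the remainder averaged 761 for Csf2ra, 325 for Cd68, 66.3 for Csf1r and 49.8 for Ly6c1. For Csf2ra (787), Cd68 (316) and Csf1r (50.5) the 14-sample mean lay between the old and the young mean in the authors' deposited table. Of the 302 gene models called higher, 211 (69.9%) had a 14-sample mean above their old mean and 16 reached 5 times it. No source used here says what the other samples are.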

How the data were processed

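Per the labels' protocols, Trizol was used to extract RNA and a NEBNext Ultra kit to make the libraries. The submitters' processing notes name Bowtie2, STAR, DESeq and mm10, without roles, versions or order. No source used here gives the annotation, strand setting or counting rule. Per the file headers, the authors deposited mean normalized counts (a scaled signal) for each group and over 14 samples. They also deposited the log2 fold change with its SE, the Wald score, p-values and adjusted p-values.

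The column of the old group matches no single title. It was read as the mean of the old libraries. The 14-sample mean allows at most 4.08 libraries behind the old mean. Depth per library is unknown, so no counting interval was computed. The deposited adjusted p-values span 11778 tests, found from their ratio to the p-values and ranks and checked on simulated data.

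The deposited log2 fold change differed from the log2 ratio of the means by at most 0.0457 in the 5 genes. From these values alone it was read as not shrunken. Its header, log2FcMAP, is not explained and may name a shrunken estimate. A test on counts per library had been planned. The files hold group means, so the Wald test of the authors was used. Intervals are the estimate plus and minus the normal 95% range of the SE. Gene models were matched by symbol, with older symbols resolved through RefSeq (GRCm38.p6). Exon lengths, overlaps and shared windows of 31 and 50 bases came from GENCODE M21. Members and lists were chosen with earlier results of these data known. The named genes were all members, up to 4 listed genes per list by adjusted p, listed Ly6 relatives and the 3 nearest gene models per member. Cases named beyond it, because a count or a missing row concerns them, were chosen after their values were seen. Values of some listed genes are not reported here. Python 3.11.15, pandas 2.3.3, numpy 2.4.6 and scipy 1.17.1 were used.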

Additional observations from a re-analysis of the deposited data

Results flagged for a closer look

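Csf3r and Ly6c1 had a mean over all 14 samples of the authors' fit above the means of both age groups, in a column that the age comparison does not use. For Csf3r it was 468 normalized counts, against 85.8 in old cells and 8.72 in young cells. For Ly6c1 it was 34.5, against 32.6 in old cells and 1.34 in young cells. The cause was not tested.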

How the results depend on the processing

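The 33 alternative values for the 5 genes had one direction, but they reuse the same deposited values, so this is no measure of stability. Only the 0.01 limit and the recentring could change a call, since the other settings keep the deposited adjusted p. At the 0.01 limit 4 of the 5 genes passed, and after recentring 5. The exception was Ly6c1 at 0.01, with a log2 fold change of 4.62 and a DESeq adjusted p of 0.0251. Ly6c1 had no value at a mean of at least 50 or an SE of at most 1. Recentring on 230 listed gene models with both means at or above 1000 shifted all changes by 0.66 upwards (their median was -0.66), gave 2.16 for Csf2ra, 3.94 for Csf3r, 4.03 for Csf1r, 4.30 for Cd68 and 5.29 for Ly6c1, and left 434 listed gene models called higher and 0 lower, against 302 and 185, which were 62.0% higher. At that recentring only listed gene models could enter, and abundant ones were mostly lower, so the split and the larger changes follow by construction. With a pseudocount of 10 the log2 ratio of the means was 1.47 for Csf2ra, 2.36 for Csf3r, 2.12 for Csf1r, 3.35 for Cd68 and 1.91 for Ly6c1, which had the lowest young mean.

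At a limit of 0.01 the counts were 1 for transcription factors (4 at 0.05), 5 for monocyte and macrophage markers (9), 2 for eosinophil, basophil and mast cell markers (4), and 0 for the Ly6 family (1), T and NK cells (2), erythroid markers (2) and the sort gate and megakaryocyte list (2). At a limit of 0.1 they were 3 for the Ly6 family and 5 for the sort gate and megakaryocyte list, of which Gfi1b was lower in old. Recentring gave 3 and 4 for the same lists. At a mean of at least 50 they were 5 for monocytes and macrophages, 1 for T and NK cells and 1 for eosinophils, basophils and mast cells. At an SE of at most 1 they were 1 for signal carriers (3), 3 for monocytes and macrophages, 2 for neutrophil markers (19), 1 for T and NK cells and 0 for eosinophils, basophils and mast cells. Fewer gene models entered under these limits by construction.

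No paired analysis was possible because the table gives group means and no value per library. For the same reason, leaving out single libraries and other library normalizations were not run. Unknown depth limits the low young means of Ly6c1, Csf1r and Csf3r most.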
